A study of Mus musculus with 2 samples.

Results

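Peaks of a Rac1 antibody that fell in 5' untranslated regions (5' UTRs) were examined in the retina of untreated mice and of mice after 1 week of chronic ocular hypertension (COH). They were taken as every peak to which the authors' annotation gives the class 5' UTR. These were 537 of the 3078 peaks of the control list (17.4%, 95% interval 16.1 to 18.8) and 198 of the 1711 peaks of the COH list (11.6%, 10.1 to 13.2). In CUT&Tag, the assay used, an antibody on chromatin recruits the Tn5 transposase, which cuts the DNA nearby and leaves sequencing adapters there. Nuclei came from whole retina of wild-type C57BL/6 mice 7 weeks old, stained with the antibody ab33186 and amplified with 15 PCR cycles in both groups, and the groups differed in treatment, none against COH. COH models glaucoma: a lasting rise of eye pressure damages retinal ganglion cells through their axons. There was 1 library per group, so nothing was tested between the conditions. Intervals are exact 95% Clopper-Pearson intervals of a share, which cover counting error only. In a bulk library, fewer nuclei with a bound site and less binding per nucleus cannot be told apart. A gene without a listed peak is not shown to be unbound, since only peaks past the caller's threshold were listed.

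The 5' UTR is the part of a messenger RNA between the transcription start site (TSS) and the start codon. At the level of DNA it begins at the TSS and so directly follows the promoter, and in many genes an intron divides it, which places a further stretch of it far inside the gene. The RNA it encodes carries features that set the rate of translation, such as upstream open reading frames, the iron-responsive element of ferritin messages and the oligopyrimidine tract of messages for the translation machinery. Rac1 is a small GTPase known for driving actin remodelling at the plasma membrane, and a pool of it enters the nucleus. CUT&Tag reports DNA near the antibody's target, so a peak in a 5' UTR concerns the chromatin there and not the RNA.

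The start regions of the genes with 5' UTR peaks were compared with those of all protein-coding genes in RefSeq windows of 300 bases, from 250 before to 50 after the TSS, in the build GRCm38.p6. A window was matched for 414 of 535 genes in control and for 155 of 197 in COH. The GC box, GGGCGG on either strand, is the motif of the broadly active Sp1 family. It was present in 71.3% (66.6 to 75.6) of the control and 65.2% (57.1 to 72.6) of the COH windows, against 46.3% of all 17492 protein-coding windows. Genes with a promoter peak held it in 80.6% (78.2 to 82.9) in control and 84.3% (80.9 to 87.3) in COH. The TATA box, TATAAA on either strand, was in 4.35% (2.6 to 6.78) of the control and 4.52% (1.83 to 9.08) of the COH windows, against 13.3% of all. The E-box CACGTG, which reads the same on both strands and is the site of the circadian activators, was in 10.9% (8.04 to 14.3) and 12.3% (7.54 to 18.5), against 7.91%. The CCAAT box, CCAAT on either strand, was in 39.6% (34.9 to 44.5) and 49.7% (41.6 to 57.8), against 39.2%. The median GC content was 64% and 63%, against 56.3% over all windows, and the ratio of observed to expected CpG dinucleotides was 0.782 and 0.773, against 0.577. The windows of genes with 5' UTR peaks thus held GC boxes more often and TATA boxes less often than protein-coding windows at large, with intervals that leave out the share of all windows. For the CCAAT box this held in COH and not in control, and for the E-box in control and not in COH. GC boxes were more frequent still at genes with promoter peaks. In control and COH those genes held TATA boxes in 3.64% and 5.11%, E-boxes in 10.4% and 14.2%, and CCAAT boxes in 44.6% and 40.9%. Their median GC content was 66.3% and 67.3%, and their CpG ratio 0.849 and 0.841. The traits of these windows are thus not particular to the 5' UTR class. GC-rich windows hold GC-rich motifs more often by composition alone, and a match of letters is not a bound site. The lines below show the GC box closest upstream of the TSS, in capitals, for 8 genes whose 5' UTR peaks overlapped between both retinas. They also show an E-box of Tef and the TATA box of Fos, as the rarer motifs. The sequences are RefSeq's, 5' to 3' on the strand of the gene, and were chosen after the values of their peaks were seen.

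Tef GC box: acaaggccaggtCCGCCCtgccaagcagcg
Tef E-box: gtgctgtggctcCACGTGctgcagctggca
Add3 GC box: cctcccaccccccccacccccCCGCCCttt
Nampt GC box: ccgccccttgtccccgggatGGGCGGggcg
Madd GC box: cctgcctGGGCGGctgggcacatccaaaca
Phf20 GC box: cgggaggggcggggcccgGGGCGGggctgt
Cetn3 GC box: gcagcgacgcttCCGCCCcaataggccggc
Snap91 GC box: cgcgcaccaggtCCGCCCggggacgcagcg
Kat6b GC box: gggagcggggctGGGCGGcgctgcctcggg
Fos TATA box: tcacagcgcttcTATAAAggcgccagctga

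In GRCm38.p6 these windows lie at chr15:81802563-81802592 and chr15:81802534-81802563 for Tef, chr19:53140413-53140442 for Add3, chr12:32820305-32820334 for Nampt and chr2:156196617-156196646 for Phf20. Those of Cetn3, Kat6b and Fos lie at chr13:81783181-81783210, chr14:21499729-21499758 and chr12:85473845-85473874, all on the plus strand. Those of Madd and Snap91 lie at chr2:91183268-91183297 and chr9:86880723-86880752, on the minus strand.

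Most 5' UTR peaks sat within 1000 bp downstream of the TSS, next to the peaks that the annotation calls promoter peaks. The authors' distance, from the TSS of the assigned gene to the nearest edge of the peak, was 0 for 1207 of the 1445 control promoter peaks, and all 1207 spanned the TSS. The other 238 lay upstream. In COH 523 of the 694 promoter peaks spanned the TSS and 171 lay upstream. No promoter peak began downstream of a TSS, and 0 of the 5' UTR peaks of either list touched one. Near a gene start, the 5' UTR peaks downstream of the TSS thus had their nearest edge at least 1 bp past it, where exonic and intronic peaks were listed as well. Map3k4, a kinase of the stress-activated MAP kinase cascade, had its control peak at 1 bp downstream, as did the autophagy protease gene Atg4d and Lrig1, a brake on growth factor receptors. These 3 were named after their values were seen.

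In control 389 of the 537 5' UTR peaks (72.4%) began 1 to 1000 bp downstream of the TSS, with a median edge at 99 bp. Of these, 35 began within 10 bp and 199 within 100 bp. Their summits lay at a median of 309 bp (quartiles 220 to 500), against 21 bp for the promoter peaks that span a TSS. In COH 150 of 198 (75.8%) began within 1000 bp downstream, with a median edge at 115 bp, 7 within 10 bp and 68 within 100 bp. Their summits lay at a median of 356 bp (226 to 544), against 5 bp for the promoter peaks that span a TSS. Over all 5' UTR peaks the median distance was 139 bp (quartiles 41 to 829) in control and 188 bp (55 to 681) in COH. The summit distributions of the 2 classes run into each other around 200 to 300 bp past the TSS, as the histogram of summit positions shows.

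**Figure D1:**
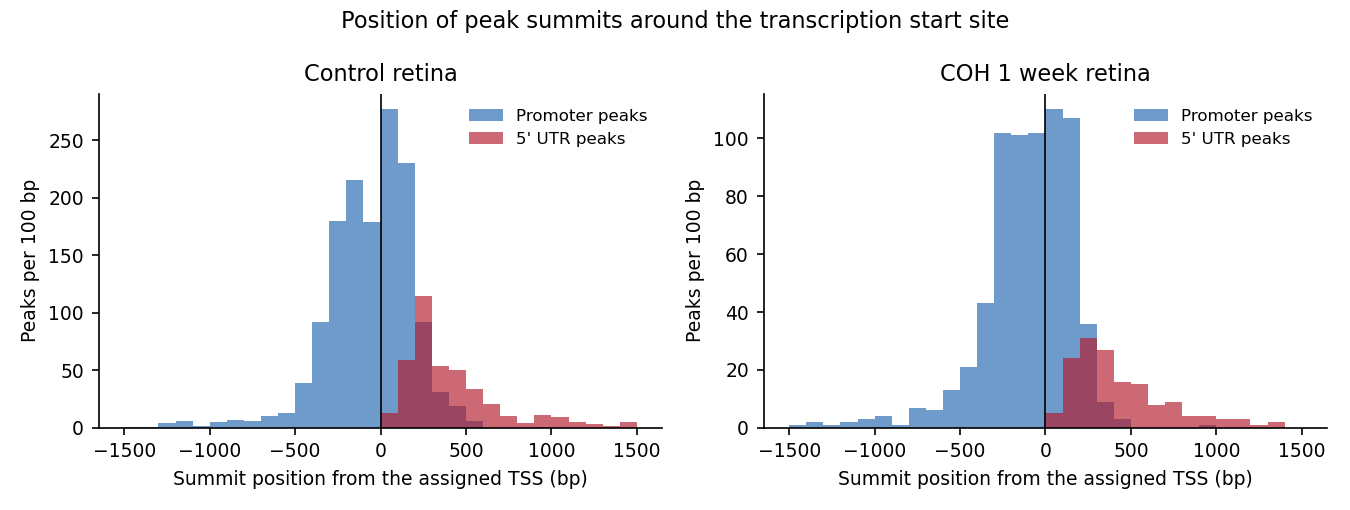
Number of peak summits per 100 bp against the signed distance from the TSS of the assigned gene, in bp, for promoter peaks (blue) and 5' UTR peaks (red) in control (left) and COH 1 week (right); darker red marks where the bars overlap. The most filled bin of the 5' UTR peaks starts at 200 bp in both libraries, with 115 control and 31 COH peaks, while that of the promoter peaks starts at 0 bp, with 277 and 110.

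A smaller set of 5' UTR peaks lay deep in genes or outside them. In control 76 peaks began over 1000 and up to 10000 bp downstream and 49 more than 10000 bp downstream, and in COH 21 and 20 did. The farthest control peaks lay 572248 bp downstream of the TSS of Sox5, a transcription factor of neural and cartilage development (fold 3.9), and 183588 bp downstream of that of Ppp2r2b, a regulatory subunit of protein phosphatase 2A (fold 5.26). Peaks of Spata4 (123422 bp), of the cholecystokinin receptor gene Cckar (117023 bp) and of the chromodomain gene Cdyl (81052 bp) followed. The Cckar peak had a COH partner at 117221 bp, the farthest of that list, with a fold of 5.78 in control and 4.29 in COH. Next in COH were Phyhipl (56023 bp), Serp2 (52150 bp), Mapre2, which encodes a protein of growing microtubule ends (51560 bp), and Srsf12 (39220 bp), a splicing regulator.

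Upstream of their assigned gene lay 23 control and 7 COH peaks. The farthest were those of the predicted gene Gm47686 at -679032 bp and Sec63, a translocation factor of the endoplasmic reticulum, at -82195 bp in control, and Gm12035 at -56680 bp in COH. Altogether 500 of 537 control peaks and 187 of 198 COH peaks overlapped the span of the assigned gene. The other 37 and 11 lay upstream of it or past its end, so that for those peaks the gene named is a neighbour of the annotated 5' UTR. The share with a partner in the other list was alike near and far. In control it was 22.6% (18.6 to 27.1) within 1000 bp downstream and 20.9% (14.7 to 28.4) over 1000 bp away, and in COH it was 59.3% (51 to 67.3) and 60.4% (45.3 to 74.2).

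The 5' UTR peaks were somewhat weaker than promoter peaks at the median and did not reach the highest folds of the lists. The fold enrichment given by the authors' peak caller had a median of 4.98 (quartiles 4.45 to 5.73, range 2.98 to 10.5) in control and 5.08 (4.51 to 5.9, range 2.99 to 14.3) in COH. Promoter peaks had medians of 5.29 and 5.43 and reached 21.1 and 21.6, exonic peaks had lower medians of 4.78 and 4.64, and the highest folds of the whole lists were 32.5 and 32.6. The pileup, the height of the signal at the summit, was 16 at the median of the control 5' UTR peaks and 15 at that of the COH ones, against 18 and 17 for promoter peaks. The median -log10 q was 5.42 and 4.87, and the median length 417 and 410 bp, against 485 and 436 bp for promoter peaks. With 40 peaks in the highest of 5 bins of the control list by fold, and 13 in that of the COH list, the class was thin among the strongest peaks. The weakest by fold were those of Ppp2r3d (2.98), the complement gene C2 (3.31) and Lpcat1, a phospholipid enzyme (3.39), in control. In COH they were those of Csf2ra, a cytokine receptor chain (2.99), Ppp2r3d (3.18) and Kctd15 (3.58).

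Among the common classes, 5' UTR peaks had the lowest number in COH relative to control. The ratio of COH to control peaks was 0.369 for 5' UTRs, against 0.48 for promoters and for exons, 0.763 for introns and 0.556 for all peaks. With promoter and 5' UTR peaks taken as 1 class of gene starts, the numbers were 1982 and 892, a ratio of 0.45. The size of the ratio depended on how deep the lists were read. With a -log10 q of at least 5 in both lists, 302 control and 94 COH peaks were left, a ratio of 0.311, against 0.446 for promoters, 0.571 for exons and 0.535 over all classes. With the control list limited to its 1711 strongest peaks by fold, as many as the COH list holds, 255 control peaks stood against 198, a ratio of 0.776. Promoters then had 0.833, introns 1.38 and distal intergenic regions 1.25. Under each of these settings the ratio of the 5' UTR class was the lowest of these classes, and the library size behind it is unknown.

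By chromosome the ratio ranged from 0.0952 on chromosome 16, with 21 control and 2 COH peaks, to 0.75 on chromosome 14, with 20 and 15. These chromosomes were named after their values were seen. The peaks fell on genes of both strands, 272 plus and 265 minus in control and 108 and 90 in COH.

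A smaller share of 5' UTR peaks than of all peaks had a partner in the other list. Of the control 5' UTR peaks, 119 (22.2%, 18.7 to 25.9) overlapped a COH peak of any class by at least 1 bp, against 34.3% of all control peaks and 35.3% (32.8 to 37.8) of control promoter peaks. Of the COH 5' UTR peaks, 118 (59.6%, 52.4 to 66.5) overlapped a control peak, against 61.8% of all COH peaks and 70.7% (67.2 to 74.1) of COH promoter peaks. The COH share was thus near that of the list as a whole, while the control share lay below that of its list. In both lists the share was below that of promoter peaks, with intervals that do not meet.

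The share with a partner was higher in bins of higher fold. Among control 5' UTR peaks it was 17.1% (10.8 to 25.2) in the lowest of 5 bins of the list and 35% (20.6 to 51.7) in the highest. For control promoter peaks the same bins gave 21.6% (16.8 to 27.1) and 58.5% (51.9 to 64.8). In the fourth bin 25.4% (18.1 to 33.9) of 5' UTR and 41.1% (35.9 to 46.5) of promoter peaks had a partner, and in these top bins the intervals of the classes did not meet, while in the 3 lower bins they overlapped. Among COH 5' UTR peaks 36% (22.9 to 50.8) had a control partner in the lowest bin, 90% (76.3 to 97.2) in the fourth and 13 of 13 in the highest (75.3 to 100). COH promoter peaks had 52.5%, 82.6% and 92% in the same bins, with intervals that overlap those of the 5' UTR peaks. The top control bin spans folds from 6.61 to 32.5, of which 5' UTR peaks reach 10.5 and promoter peaks 21.1, so the classes were not alike in fold there. Lengths and pileups within a bin were not matched either, and the part of these differences was not tested.

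**Figure D2:**
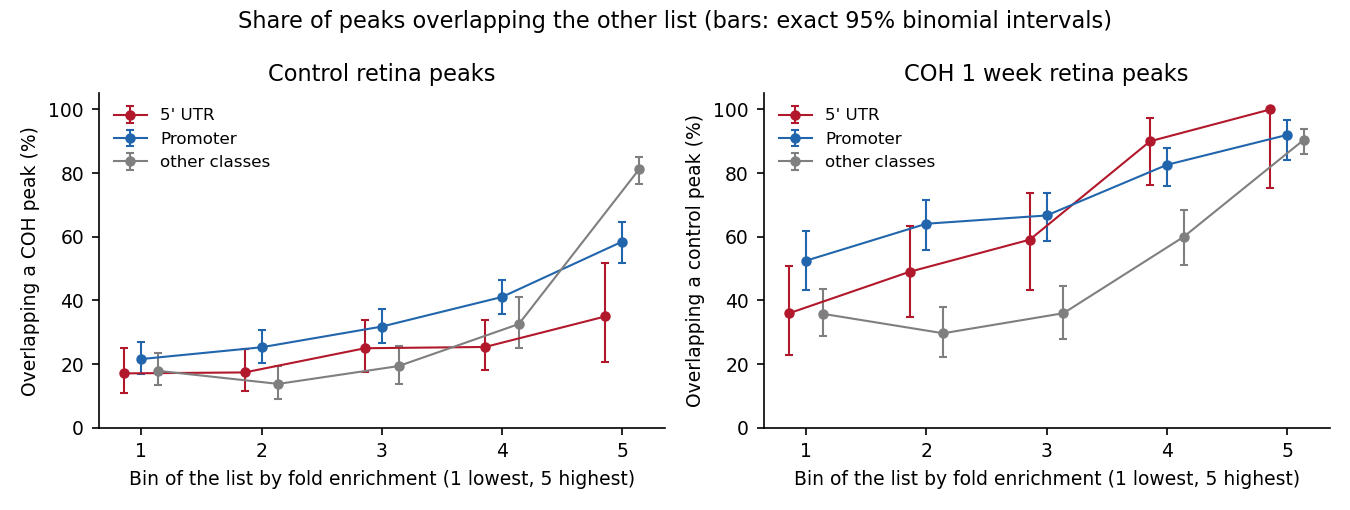
Share of peaks, in percent, that overlap a peak of the other list by at least 1 bp, in 5 bins of each list by fold enrichment, for 5' UTR peaks (red), promoter peaks (blue) and all other classes (grey); points are shares and bars exact 95% binomial intervals. Among control peaks (left) the 5' UTR share reaches 35% in the highest bin against 58.5% for promoters, while among COH peaks (right) it reaches 100%, 13 of 13.

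The peaks with a partner were taller and longer than those without. In control the median fold was 5.19 with a partner and 4.93 without, the median pileup 20 and 16, and the median length 534 and 404 bp. In COH the median fold was 5.56 and 4.67, the median pileup 17 and 13, and the median length 450 and 368 bp. A 5' UTR peak without a partner mostly had no peak of the other list nearby either. Of the 418 such control peaks 12 had a COH peak within 1000 bp, and the median distance to the nearest was 397 kb. Of the 80 such COH peaks 2 had a control peak within 1000 bp.

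A good part of the partners were of another class. Of the 119 control peaks with a partner, 84 met a COH 5' UTR peak, 19 a promoter peak, 10 an intronic peak alone and 6 an exonic one. Of the 118 in COH, 84 met a control 5' UTR peak, 33 a promoter peak and 1 an intronic peak. Counting only 5' UTR partners, the shares were 15.6% in control and 42.4% in COH. In the 33 pairs with a promoter peak in control and a 5' UTR peak in COH, the control peak was the longer in 28, with a median of 550 against 377 bp. Its pileup was a median of 21 against 15, and its fold was higher in 25. The pairs were picked by a control peak that reached the TSS of its assigned gene and a COH peak that did not reach that of its own. Their lengths are thus not independent of that choice. Over all 1060 overlapping pairs the control peak was the longer in 671 and its fold the higher in 571. The COH edge in the 33 pairs lay at a median of 58 bp past the TSS. In the 19 pairs of the opposite kind, the COH peak was the longer in 11, and the median lengths were 466 and 458 bp. The control edge there lay at a median of 63 bp. In each of these 52 pairs, then, a peak of one list reached the TSS of its assigned gene or lay upstream. Its partner lay downstream of the TSS of its own assigned gene. Both peaks were assigned to the same gene in 31 of the 33 pairs and in all 19 of the others.

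Several genes of known roles were of this kind. Ints7, a subunit of the Integrator complex that cleaves small nuclear RNAs, had a promoter peak in control (pileup 25, fold 7.51) and a 5' UTR peak in COH at 100 bp (pileup 29, fold 9.08). Ddx5, an RNA helicase, had 36 and 7.87 at its promoter in control and 23 and 7.26 at 55 bp in COH. The centriole gene Mphosph9 had a fold of 8.27 in control and 7.38 in COH at 16 bp. Bcl2l1, the survival gene of the Bcl2 family, had a fold of 7.07 in control and 4.95 at 79 bp in COH. For these genes the class differed between the lists while a peak was listed in both.

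**Figure D3:**
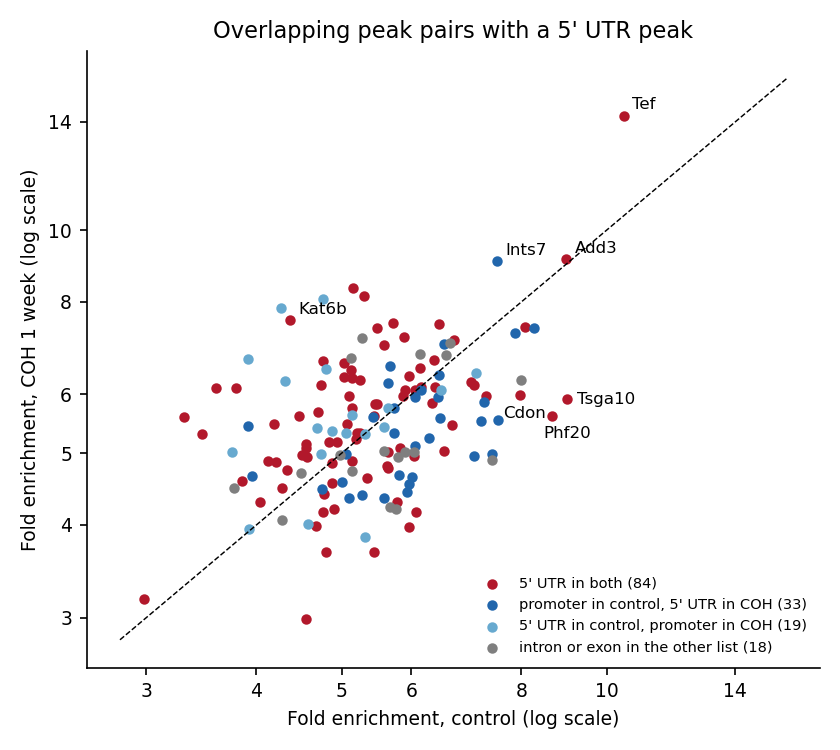
Fold enrichment in control (x axis, log scale) against COH 1 week (y axis, log scale) for each overlapping pair with a 5' UTR peak in at least 1 list, coloured by the classes of its peaks; the dashed line marks equal folds. Tef stands apart at 10.5 and 14.3. Pairs with a promoter peak in control (dark blue) lie mostly below the line, 25 of 33, and pairs of 5' UTR peaks (red) mostly above it, 53 of 84. Over all 1060 overlapping pairs of the lists the fold was higher in control in 571 and in COH in 486.

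Where both peaks were 5' UTR peaks they belonged to the same gene in all 84 pairs. The summits lay a median of 97.5 bp apart (quartiles 46.8 to 167), close to the 103 bp of the 471 promoter pairs. The fold was higher in COH in 53 of these pairs and in control in 31, with medians of 5.62 and 5.22. The pileup, by contrast, was higher in COH in 21 of the 84, with medians of 18 in COH and 21.5 in control. Over all 1060 overlapping pairs of the lists, the fold was higher in COH in 486 and the pileup in 259. Fold and pileup therefore order the libraries in opposite ways at these sites, and neither the depth nor the scaling of the pileup is known. No site can be called stronger in one retina from these values.

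Tef, which encodes a clock-controlled transcription factor of the PAR bZIP family, carried the strongest 5' UTR peak of both lists. It lay at 81694928 to 81695895 on chromosome 15 in control and at 81695036 to 81695970 in COH, in the coordinates of the lists, 8306 and 8414 bp downstream of the TSS. The pileup was 100 in control and 143 in COH, the fold 10.5 and 14.3, and the -log10 q 64.0 and 110.4. The summits were 37 bp apart. It ranked 129 by fold among all control peaks and 45 among all COH peaks. A second pair of Tef peaks lay next to its TSS, at 147 bp in control (pileup 18, fold 4.12) and 162 bp in COH (pileup 21, fold 4.88). Tef was the only gene with 2 5' UTR peaks in both lists, and Sec63 had 2 in control. The stretch upstream of the Tef TSS holds the GC box and the E-box printed above. Both lie more than 8 kb from the stronger peak, whose own sequence was not used here.

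The next pairs by rank came from genes of varied roles. Add3, which encodes an adducin that caps actin filaments and joins them to spectrin, had pileup 44 and fold 9.0 in control and 40 and 9.13 in COH, at 1866 bp in both. Nampt, the rate-limiting enzyme of NAD salvage, had 32 and 8.07 in control and 27 and 7.41 in COH, at 524 and 520 bp. The pileups and folds of both genes were close in the 2 libraries. Tsga10, a gene of the sperm tail and centrosome, had pileup 41 and fold 9.01 in control and 17 and 5.91 in COH. Cdon, a Hedgehog co-receptor, had 29 and 7.97 at 4 bp in control and 17 and 5.99 at 56 bp in COH. Phf20, a subunit of a histone acetyltransferase complex, had 32 and 8.67 in control and 15 and 5.62 in COH. At these genes both values were lower in COH, without a replicate to set a spread.

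Madd, an exchange factor for the synaptic vesicle GTPase Rab3, had a fold of 6.71 in control and 7.1 in COH. Snap91, which encodes the clathrin assembly protein AP180 of synapses, had 7.07 and 6.17 with summits 8 bp apart. The centrosomal calcium-binding protein gene Cetn3 had 7.01 and 6.24. Garnl3, with a GTPase-activating domain of the Rap type, had 6.45 and 7.46 with summits 3 bp apart. Oga, the enzyme that removes O-GlcNAc from proteins, had 5.88 and 7.17. In this set neither library had the higher fold throughout.

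Other pairs had the higher fold in COH. Mepce, the enzyme that caps 7SK RNA, had 5.15 in control and 8.35 in COH, and a pileup of 29 and 42. Gtdc1 had 5.3 and 8.14. Tbc1d14, a regulator of Rab11 and autophagy, had 5.72 and 7.5, and Vdac2, a channel of the outer mitochondrial membrane, 5.49 and 7.38. Kat6b, a histone acetyltransferase, had the longest COH peak of the class, 1518 bp against 1222 bp in control, 18303 and 18543 bp downstream of the TSS, with a pileup of 59 and 41 and a fold of 7.56 and 4.37. Its summits were 880 bp apart, so the highest points of its overlapping peaks lay at different places. The longest control peaks were those of Ywhaz, which encodes a 14-3-3 protein (1474 bp), and Egr1, an immediate early transcription factor (1306 bp). The Ywhaz peak had no COH partner.

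Of the 20 control 5' UTR peaks of highest fold, 11 (55%) had no COH partner, against 77.8% of all control 5' UTR peaks and 65.7% of all control peaks. Echdc1, an enzyme that clears a by-product of fatty acid synthesis, had a fold of 8.96 and a pileup of 22 at 5 bp. The growth factor gene Egf had 8.17 at 29933 bp, and the hypoxia-responsive mitochondrial gene Higd1a 7.89 at 367 bp. Cisd2, an iron-sulfur protein of the endoplasmic reticulum, had 7.87, and Arhgef12, an exchange factor of small GTPases, 7.72. Eno1, a glycolytic enzyme, had 7.59 with a pileup of 40. Immt, which shapes mitochondrial cristae, and Nsun4, a methyltransferase of the mitochondrial ribosome, both had 7.31. Acer3, Plpp1 and Klhl24 completed the 11. In COH the strongest peaks without a control partner were those of the predicted gene Gm16061 (6.96) and Nars2, the mitochondrial asparaginyl-tRNA synthetase (6.68).

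By gene, 5' UTR peaks were assigned to 535 genes in control and 197 in COH. The 84 genes common to both are 15.7% of the control and 42.6% of the COH genes. Counting peaks of any class, 1029 genes were common to both lists, 35.6% of 2893 control and 64.6% of 1593 COH genes. Of the 451 control genes without a COH 5' UTR peak, 56 had a COH peak of another class and 395 had none. Of the 113 COH genes without a control 5' UTR peak, 35 had a control peak of another class and 78 had none. Hmgn2, a nucleosome-binding protein, was the 1 shared gene whose peaks did not overlap, with the control peak at 750 bp (fold 3.57) and the COH peak at 143 bp (fold 4.17). A 5' UTR peak and a promoter peak in the same list were rare at a single gene, with 7 such genes in control (Adk, Cic, Crocc, Gatad2a, Ptpn12, Rnf44 and Tmpo) and 0 in COH. Rac1 had 0 peaks in both lists. Kif2a, the microtubule-depolymerising kinesin named in the title of the series, had 0 5' UTR peaks in both and 1 control peak of another class.

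The roles of the genes were described with 37 gene lists, set against the share of all 21900 protein-coding genes with a 5' UTR peak, 2.35% in control and 0.863% in COH. Of the protein-coding genes with a peak of any class, 21.8% of 2363 in control and 16% of 1179 in COH had one in a 5' UTR. The lists hold 2138 genes, of which 112 had a 5' UTR peak in control and 41 in COH. Gene length and expression were not matched, so these counts describe the lists and test nothing. Lists with a share near that of all genes give no result about their members.

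**Figure D4:**
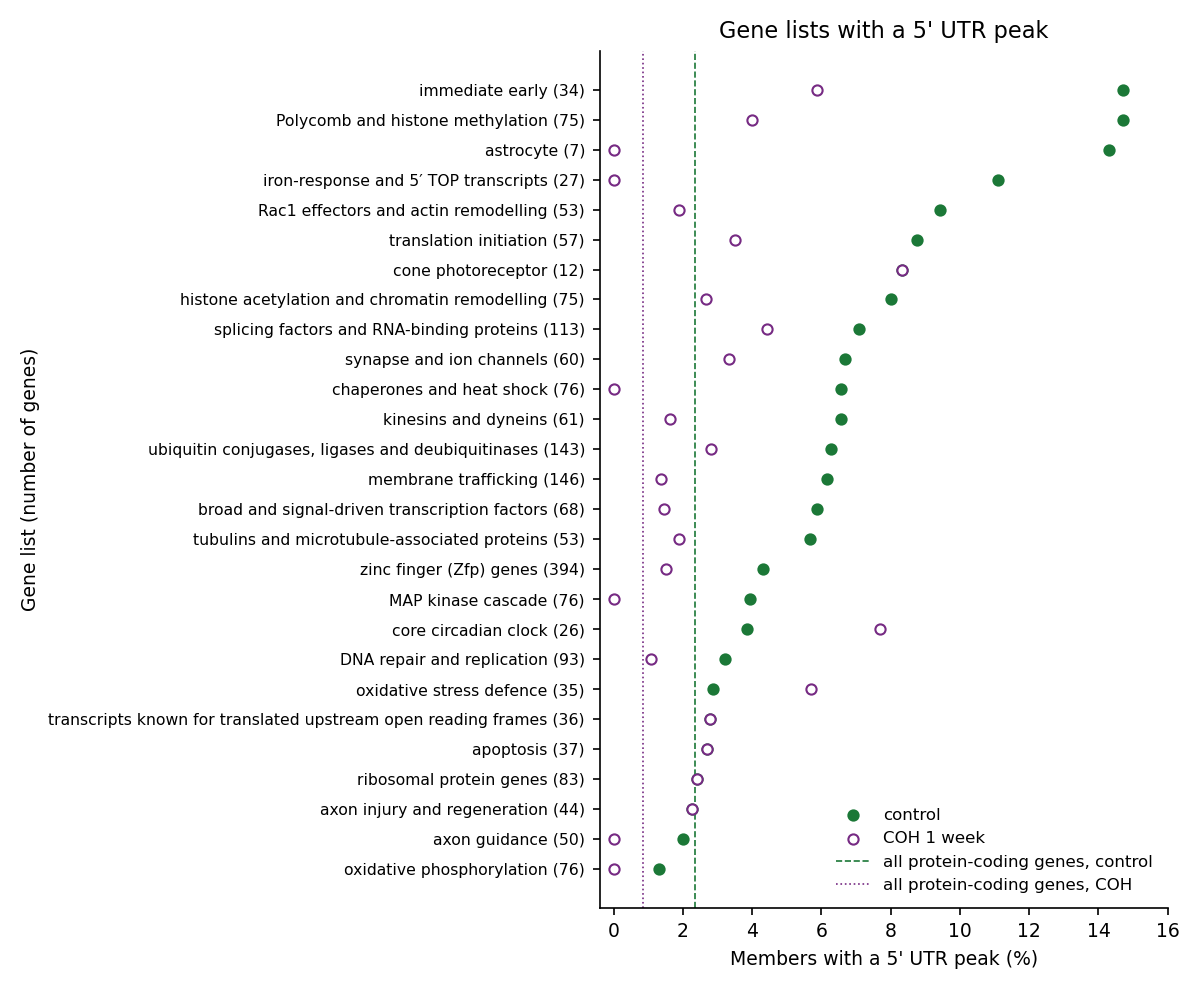
Share of the members of each gene list with a 5' UTR peak, in percent, in control (green) and COH 1 week (open purple), for the lists shown with at least 1 such member; list sizes are in parentheses, and lines mark the share of all protein-coding genes, 2.35% and 0.863%. Immediate early genes and Polycomb and histone methylation genes have the highest control shares, both 14.7%. Core circadian clock and oxidative stress genes each have 2 members in COH and 1 in control, with intervals that overlap.

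Regulators of chromatin had shares above that of all genes in control, as did lists of other roles. Translation initiation had 8.77%, splicing factors 7.08%, ubiquitin genes 6.29% and membrane trafficking 6.16%. Axon injury genes (2.27%), axon guidance (2%) and oxidative phosphorylation (1.32%) lay below that of all genes. A raised control share is thus not particular to chromatin genes. Of 75 genes of Polycomb and histone methylation, 11 (14.7%, 7.56 to 24.7) had a control 5' UTR peak and 3 (4%, 0.833 to 11.2) a COH one, among 34 and 17 with a peak of any class. The control members were 32.4% (17.4 to 50.5) of those with any peak, an interval that contains the 21.8% of all genes with a peak. Polycomb complexes are known for silencing genes through marks on histones H3 and H2A. Their members here were Ezh2, the H3K27 methyltransferase (fold 4.93 in control), its cofactors Jarid2 (5.83) and Aebp2 (3.85 in control, 4.58 in COH), the H2A ubiquitin ligase Rnf2 (5.85) and its partners Pcgf3 (5.4, control) and Pcgf1 (4.66, COH), the last named to complete the COH count. Kdm2a, a demethylase that binds CpG islands, had overlapping peaks with pileup 31 and fold 6.38 in control and 22 and 6.14 in COH. The DNA methyltransferase gene Dnmt1 had 6.92 in control, and the H3K9 methyltransferase gene Suv39h2 had 5.79. Of 75 genes of histone acetylation and chromatin remodelling, control peaks marked 6 (8%, 2.99 to 16.6), or 27.3% (10.7 to 50.2) of those with any peak, and COH peaks 2. Kat6b and Hdac4, a class IIa deacetylase, were in both. Hdac4 had pileup 29 and fold 6.16 in control, 14715 bp downstream, and 24 and 6.15 in COH, 14812 bp downstream. Trrap, a scaffold of acetyltransferase complexes (6.75), was in control only. The remodeller gene Chd9 had a control peak (7.99) that met a COH peak annotated as intronic, at the same summit.

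Immediate early genes, which neurons induce within minutes of a stimulus, had 5 of 34 members (14.7%, 4.95 to 31.1) in control and 2 (5.88%, 0.72 to 19.7) in COH. Egr1 had overlapping peaks with pileup 33 and fold 4.68 in control and 19 and 3.99 in COH. Homer1, a scaffold of the postsynaptic density with an inducible short form, had 17 and 5.96 in control and 15 and 6.36 in COH, 4080 and 4078 bp downstream. Fos (3.83), Ier5 (5.07) and the matrix protein gene Ccn2 (5.03) had control peaks without a partner, like 77.8% of all control 5' UTR peaks. Of the core circadian clock, 1 of 26 members had a control peak and 2 had a COH peak, Tef in both and Arntl, which encodes the activator BMAL1, in COH (fold 4.2, at 69 bp). Of the 12 circadian members with any peak in each list, 8.33% (0.211 to 38.5) had one in a 5' UTR in control. In COH 16.7% (2.09 to 48.4) did. These wide intervals contain the 21.8% and 16% of all genes with a peak. For immediate early genes they were 5 of 10 (18.7 to 81.3) in control and 2 of 6 (4.33 to 77.7) in COH, with intervals that contain the same shares. Broad and signal-driven transcription factors had 4 of 68 in control and 1 in COH, among 28 and 17 with any peak. Zfp143, a factor bound at many promoters, was in both, with a fold of 6.53 and 5.03.

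Effectors of Rac1, like several other lists, were marked in control by a larger share than all genes. Among 53 effectors of Rac1 and genes of actin remodelling, control peaks marked 5 (9.43%, 3.13 to 20.7) and COH peaks 1 (1.89%, 0.0478 to 10.1). Of those with any control peak, 5 of 20 (25%, 8.66 to 49.1) had it in a 5' UTR, near the share of all genes with a peak. Abi1 and Wasf3 belong to the WAVE complex, through which Rac1 activates actin branching, and had folds of 6.47 and 4.8 in control. Actr3, a subunit of the Arp2/3 complex that nucleates the branches, had 5.9, the membrane-bending adaptor gene Baiap2 3.8 and the scaffold gene Iqgap1 5.4. None of these control peaks had a COH partner, as was true of 77.8% of all control 5' UTR peaks. Wasf1, another WAVE gene, had the COH peak (pileup 19, fold 5.87, at 83 bp), which overlapped a control promoter peak assigned to Cdc40.

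Motor genes, the family of Kif2a, and microtubule genes had shares whose intervals contain that of all genes. Of 61 kinesin and dynein genes 4 (6.56%, 1.82 to 15.9) were marked in control and 1 (1.64%, 0.0415 to 8.8) in COH. Dync1li2, a light intermediate chain of cytoplasmic dynein, was in both with a fold of 4.28 and 4.49. Dync1i2 (5.4), Dync2h1 of the ciliary dynein (4.38) and Kif5b, the heavy chain of conventional kinesin (3.79), were in control. Of 53 tubulins and microtubule-associated genes, Clip2, Dclk1 and Tubg2 (5.66%, 1.18 to 15.7) had control peaks of fold 4.15 to 4.25, and Mapre2 a COH peak of 4.97. Axon injury and regeneration genes had 1 of 44 in each list. Rheb, an activator of mTOR, was assigned a control peak at -65381 bp (5.45), upstream of the gene and outside its span. For that peak Rheb is thus a neighbour of the annotated 5' UTR, though it counts as the control member. Bdnf, a survival factor of ganglion cells, had a COH peak at 18911 bp (4.61). Among 50 axon guidance genes, Sema3f alone had a peak, in control (3.82). Of the 16 axon injury genes with a control peak of any class, that is 6.25% (0.158 to 30.2), an interval that contains the 21.8% of all genes with a peak.

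Genes of RNA processing and protein synthesis held several members in both lists. Of 113 splicing factors and RNA-binding proteins, 8 (7.08%, 3.11 to 13.5) were marked in control and 5 (4.42%, 1.45 to 10) in COH. Of the members with any peak, those in a 5' UTR were 21.1% (9.55 to 37.3) and 27.8% (9.69 to 53.5). These intervals contain the 21.8% and 16% of all genes with a peak. Hnrnpll, a splicing regulator, had overlapping peaks with a fold of 5.03 in control and 6.61 in COH, and Srsf12 with 5.44 and 3.68. Control peaks also marked Hnrnpr (6.1), Hnrnph1 (5.87) and Tra2b (5.25). In COH there were Ddx5, Luc7l2 (6.55) and Rbm17 (5.95). Among 57 translation initiation genes, 5 were marked in control, and 2 of these also in COH. Eif5a, the factor that carries hypusine, had peaks 330 bp downstream in both, with pileup 22 and fold 4.94 in control and 18 and 5.17 in COH. Paip1, which binds poly(A)-binding protein, had 4.76 and 4.17.

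Transcripts whose 5' UTR is itself known for translational control gave small counts with wide intervals. Of 27 iron-responsive and oligopyrimidine-tract transcripts, 3 (11.1%, 2.35 to 29.2) had a control 5' UTR peak and 0 (up to 12.8%) a COH one. They were the ferritin heavy chain gene Fth1 (3.99, at 2204 bp), the elongation factor gene Eef1a1 (5.12, at 6875 bp) and Npm1 (4.85, at 153 bp). The Eef1a1 peak overlapped a COH peak annotated as intronic (6.71). Of 36 transcripts known for translated upstream open reading frames, 1 was marked in each list (2.78%, 0.0703 to 14.5). Eif5 had a control peak (5.92) and Ppp1r15b, a phosphatase subunit that reverses the stress-induced block of translation, a COH peak (5.33). The Ppp1r15b peak overlapped a control promoter peak of the same gene (5.74). Of 83 ribosomal protein genes each list marked 2 (2.41%, 0.293 to 8.43). They were Rpl23 (5.27) and Rps15a (4.08) in control and Rpl13 (5.5) and Rpl21 (5.52) in COH. No ribosomal protein gene had a 5' UTR peak in both lists. Over all genes with such a peak, the shared ones were 15.7% in control and 42.6% in COH. The Rpl21 peak overlapped a control promoter peak of the same gene (7.2).

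The larger housekeeping and signalling lists had more members in control, as all protein-coding genes did (515 against 189). Ubiquitin conjugases, ligases and deubiquitinases had 9 of 143 (6.29%, 2.92 to 11.6) in control and 4 in COH. Usp14, a deubiquitinase of the proteasome (fold 5.24 and 5.32), was among those in both. Membrane trafficking genes had 9 of 146 (6.16%, 2.86 to 11.4) and 2, with the clathrin adaptor Ap1g1 (7.27), the coatomer subunit Copb1 (6.6) and the sorting nexin Snx2 (6.48) in control and Rab33b in both (4.47 and 5.61). Chaperones had 5 of 76 (6.58%, 2.17 to 14.7) in control, among them Chordc1 (5.98) and Hsp90aa1 (5.28), and 0 in COH (up to 4.74%). MAP kinase genes had 3 of 76 (3.95%, 0.822 to 11.1) in control, Rps6ka5 (5.95), Map3k5 (4.91) and Map3k4 (4.79), and 0 in COH. Oxidative phosphorylation had Ndufa5 (4.91) in control and 0 in COH. The intervals of the control and COH shares overlap for each list of this paragraph. Of members with any control peak, 19.6% (9.36 to 33.9) of the ubiquitin and 24.3% (11.8 to 41.2) of the trafficking genes had one in a 5' UTR. Both intervals contain the 21.8% of all genes with a peak.

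Injury-related and neuronal genes were single cases. The apoptosis genes had Bcl2l1 in COH. Of 35 genes of oxidative stress defence, 1 (2.86%, 0.0723 to 14.9) had a control 5' UTR peak and 2 (5.71%, 0.7 to 19.2) a COH one. The control peak, of Sesn3 (5.9), overlapped a COH peak annotated as intronic (5.02). The antioxidant enzymes Sod2 (pileup 14, fold 5.3) and Gclm (pileup 13, fold 4.8) had COH peaks without a control partner, like 40.4% of all COH 5' UTR peaks. Of 93 DNA repair and replication genes, 3 (3.23%, 0.67 to 9.14) were marked in control and 1 (1.08%, 0.0272 to 5.85) in COH. These shares are near the 2.35% and 0.863% of all genes. Pcna, the sliding clamp of replication, was in both at 103 bp (5.34 and 4.63). Among 60 synapse and ion channel genes, Homer1 was among those in both, and the scaffold gene Dlg1 (4.97) among those in control only. Zinc finger genes named Zfp had 17 of 394 (4.31%, 2.53 to 6.82) and 6 (1.52%, 0.561 to 3.28), with Zfp143, Zfp217, Zfp786 and Zfp869 in both. Of the Zfp genes with any control peak, 32.1% (19.9 to 46.3) had one in a 5' UTR. That interval contains the 21.8% of all genes with a peak.

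Markers of retinal cell types had shares near those of all genes. The 11 marker lists hold 144 entries, of which 2 (1.39%) had a 5' UTR peak in control and 1 (0.694%) in COH, against 2.35% and 0.863% of all protein-coding genes. Of these lists, 9 had 0 members in both libraries, among them rod photoreceptor (0 of 20, which allows up to 16.8%), bipolar (0 of 14), ganglion cell (0 of 19) and Müller glia markers (0 of 14), microglia (0 of 15) and vascular markers (0 of 12). Thrb, the thyroid hormone receptor of cones, had overlapping peaks with pileup 21 and fold 5.63 in control, at 303 bp, and 14 and 4.81 in COH, at 554 bp. Slc1a2, a glutamate transporter listed for astrocytes, had a control peak (4.73, at 172 bp). Peaks are no measure of RNA, so these counts do not check the tissue, and the part of cell composition in the other counts was not tested.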

How the data were processed

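CUT&Tag libraries of 2 groups of retina, 1 library each, were read from the authors' peak lists, which hold 1 list per library. Per the submitters' processing notes, cutadapt 1.9.1 and Bowtie2 were used and the build mm9 is named. No source used here gives the peak caller, a background library or the number of reads, so the depth is unknown. The pileup, a signal of unstated scaling, and the fold enrichment, a ratio, were used as deposited by the authors. The -log10 p and the -log10 q were also taken as deposited, and their damaged headings were read from the place and range of the columns. Positions, lengths (2 bp above end minus start), distances, classes and genes are the authors', per the file headers. Gene starts of the lists differ from GRCm38.p6, so the build of the peak coordinates is unsettled, and RefSeq tables of GRCm38.p6 served for names and TSS windows only.

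Overlap meant 1 shared bp or more, computed with pandas 2.3.3, numpy 2.4.6 and exact intervals from scipy 1.17.1 under Python 3.11.15. The intervals treat peaks as separate draws, and amplified reads that carry no molecular identifier can be copies of 1 molecule. Of the gene names, 524 of 535 control and 193 of 197 COH names matched RefSeq. Motifs were searched in 1 window per gene, the 5'-most. Genes were named by rule: Rac1, Kif2a, the 20 highest folds per list, the 20 pairs of smallest rank sum, the farthest, longest and weakest peaks, genes with several peaks and up to 8 members per gene list. The members and gene lists were chosen with earlier results of these data known. The results of 1 gene list and of some members of others are not reported here. The overlap step was tested on simulated data. Alternatives were a -log10 q of at least 5, folds above the list median, equal numbers, removal of clustered peaks, chromosomes 1 to 19 and X, 1000 bp limits, a reciprocal overlap of 50%, 5' UTR partners only and any class.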

Additional observations from a re-analysis of the deposited data

How the results depend on the processing

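With a -log10 q of at least 5, there were 302 control and 94 COH 5' UTR peaks, a ratio of 0.311, a COH overlap of 69.1%, 46 shared genes, and 67 control and 22 COH members over all gene lists, against 112 and 41 in full. With folds at or above the list median, there were 223 and 79 peaks, a control overlap of 16.1%, 29 shared genes and 49 and 18 list members. With equal numbers of the strongest peaks, there were 255 control peaks, a ratio of 0.776, overlaps of 27.8% and 40.9%, 51 shared genes and 54 control list members. Peaks within 1000 bp of a TSS had median distances of 99 and 115 bp. A reciprocal overlap of 50% gave shares of 16.2% and 44.9%, and 5' UTR partners alone 15.6% and 42.4%. Counting peaks of any class, 1029 genes were shared, with 458 and 249 list members. The reciprocal overlap and the limit to 5' UTR partners change what counts as a partner, and the others leave out or add peaks by construction. The other 41 values of the summary results moved by less than their counting interval or by under 1.5 times. Of the counts of single gene lists, 156 moved and 362 did not. No paired analysis was possible because each group has 1 library. Unknown depth limits every count: a peak missing from a list may lie just under its threshold.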
